A study of Chlorocebus sabaeus with 18 samples.

Results

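This account concerns what 4 differently treated groups of COS-7 cells had in common when each was set against the same 3 control libraries. COS-7 is a fibroblast-like cell line derived from green monkey kidney. The control group (CTL) is labelled only as control COS-7 cells. CGG cells were transfected with an expanded CGG repeat (60X) of the FMR1 leader, GFP_TRA cells overexpressed TRA2A, siTRA cells had TRA2A knocked down, and CGG_siTRA cells carried both the repeat and the knockdown. Each group had 3 libraries, so 15 of the 18 samples of the series enter here, 12 treated and 3 CTL. The labels use the word transfected only for the groups with the repeat, and no group is named as a mock, empty-vector or control-siRNA group. Handling for transfection and the named treatments therefore cannot be told apart in any comparison with CTL. The labels do not describe the vector. For the knockdown reagent they give only a name, siTRA2A-1, in the titles of 2 CGG_siTRA samples. Those titles also place the 2 samples in different rounds without saying of what, and no label tells whether the other libraries of a group came from different cultures. The spread behind the p-values may therefore be technical. The 3 libraries of a group are called a, b and c.

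Members were the genes, and the parts of genes, called in the same direction in each of the 4 comparisons with CTL. A call needed a Benjamini-Hochberg adjusted p under 0.05 in edgeR's quasi-likelihood test and the same sign in all 4. Of 14969 genes or merged groups of overlapping genes tested, 1590 were members, and of 265486 exon bins tested for relative use, 147 were. An exon bin is a stretch of exon cut wherever transcripts of a gene differ. The 4 comparisons share the CTL libraries, so a peculiarity of CTL counts in each of them.

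As background, cultured cells can respond to the carrier used for transfection, to foreign nucleic acid inside the cell and to the load of making an introduced product, and such responses differ from the effect of the cargo itself. TRA2A is an SR-like splicing factor that binds purine-rich exon sequences. Expanded CGG repeats in FMR1 are the cause of the tremor and ataxia syndrome FXTAS, in which repeat RNA binds proteins in nuclear inclusions. The files hold human Ensembl identifiers without names, so genes are given by position on GRCh38 and by labels of their own: R1 to R12 for genes that rose and F1 to F12 for genes that fell. What most of these genes do is therefore not stated, and the label COS-7 was not checked against marker genes.

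Totals over exon bins ranged from 123599617 to 207475255 per library. Library siTRA b stood apart: it had the lowest total, 5.78% of its counts in the outermost 3′ bins against 3.95% to 4.95% in the other 14 libraries, and 6.86% in bins over 1000 bp. Some results that rest on it are given without it as well, while the comparisons between pairs of treated groups are given only with it. The gene on chromosome 7 from 23504780 to 23532041 alone passed 2-fold in opposite directions, up in GFP_TRA and down in siTRA and CGG_siTRA. It is taken as TRA2A, which is a weak check of the labels since it was chosen by those changes, and it was not a member.

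Genes moved the same way in all 4 groups were numerous, and most moved modestly. Of the 14969 genes tested, 708 (4.73%) were called higher and 882 (5.89%) lower in every treated group, together 10.6%. Without siTRA b there were 996 and 1108, together 2104 genes. Median log2 changes of the 708 were 0.43 in CGG, 0.41 in GFP_TRA, 0.48 in siTRA and 0.44 in CGG_siTRA. Those of the 882 were -0.52, -0.51, -0.57 and -0.53 in the same order. Over all genes tested, the median lay between -0.00 and 0.01 in each group. Only 130 of the 708 rose at least 1.5-fold in every group, 48 at least 2-fold and 13 at least 4-fold. Of the 882, 224 fell at least 1.5-fold in every group, 77 at least 2-fold and 7 at least 4-fold.

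Taken 1 at a time, CGG gave 3622 calls (24.2%), GFP_TRA 4323 (28.9%), siTRA 5683 (38%) and CGG_siTRA 4621 (30.9%). The mean of the 4 treated groups, each weighted equally, differed from CTL in 5457 genes (36.5%), of which 2644 (17.7%) were higher and 2813 (18.8%) lower. A further 621 genes were higher and 524 lower in all 4 groups but called in exactly 3 of them. Requiring only the 3 groups other than GFP_TRA gave 2223 genes, against 1721 to 1870 when another group was left out. Another 46 genes were called in all 4 groups with unlike signs. Of those, 24 were higher in CGG and GFP_TRA and lower in siTRA and CGG_siTRA, and 6 went the opposite way. The threshold cut through a continuum: the last gene inside on the higher side had a largest adjusted p of 0.04997 and the first outside 0.0501.

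The share of counts held by the members moved, as their choice required. The 708 took 5.38% to 5.54% of a CTL library's counts and 7.07% to 7.95% of a treated one's. The 882 took 9.20% to 9.69% in CTL and 6.13% to 6.75% in the treated libraries. On the authors' scaling, 532 of the 708 had every treated library above every CTL library, a pattern found in 4.81% of all genes. For falls it was 874 of the 882, against 10.7% of all genes. With TMM scaling these were 657 (7.6% of all genes) and 859 (9.23%). Against TMM, the authors' factors moved the median of all genes by -0.05 in the mean comparison and by -0.12 in CGG_siTRA on the log2 scale, while DESeq2's size factors moved them by -0.002 and -0.004. The split of the member genes moved from 44.5% higher with TMM to 30.1% higher (439 against 1020) with the authors' factors, and that of the mean comparison from 48.5% to 35.1%. With both DESeq2's and the authors' factors, 427 of the 708 rises and 854 of the 882 falls were called again. The authors' factors shift CGG, siTRA and CGG_siTRA downward as a whole, which by construction removes rises before falls.

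Naming was limited to single genes with a mean of 50 or more and no overlap of CTL and treated libraries, which took in 5 of the 13 genes that rose at least 4-fold in every group. R1 and R2 led these rises when ranked by their least change over the 4 groups. R1 (ENSG00000198074.9, chromosome 7, 134527592 to 134541408, plus strand) had normalised counts of 674, 741 and 640 in CTL. In the treated libraries it ranged from 4932 to 12920, with a median of 9298, so no treated library came near CTL. The 4 treated groups averaged 13.3 times the CTL mean. On the log2 scale the rise was 3.73 with SE 0.15 (edgeR, adjusted p = 3.92e-12). R2 (ENSG00000100292.16, chromosome 22, 35380361 to 35394214, plus strand) stood at 7026, 7927 and 7097 in CTL. Its treated libraries lay between 36021 and 60953, with a median of 52097. The rise was 7.07-fold, or 2.87 with SE 0.12 on the log2 scale (edgeR, adjusted p = 5.01e-12), and it was among the most abundant named genes.

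R1 had a neighbour that moved with it. R3 lies at chromosome 7, 134564788 to 134579875, on the same strand. It stood at 60.1, 21.4 and 12.7 in CTL and at 136 to 458 in the treated libraries, with a median of 335. In log2 units it rose by 3.35 with SE 0.30 (edgeR, adjusted p = 1.21e-07). Whether reads are shared between R1 and R3 cannot be told from the files.

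R4 (chromosome 5, 179806398 to 179838078, plus strand) rose from 8176, 8137 and 7780 in CTL to between 28700 and 46105, with a median of 37502. That is 4.69-fold, or 2.27 with SE 0.08 in log2 units (edgeR, adjusted p = 2.34e-12). It overlaps 2 annotated units on the opposite strand, and whether the counting used strand is not given in the sources used here. R11 (chromosome 19, 18382170 to 18389176, plus strand) stood at 998, 1029 and 829 in CTL. Treated libraries held 2244 to 7704, with a median of 5962, and the rise was 5.7-fold. The lowest treated values of R11 were the 3 GFP_TRA libraries, at 3322, 3220 and 2244.

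R7 (chromosome 10, 72273920 to 72276036, plus strand) and R12 (chromosome 20, 380617 to 397559, plus strand) rose at middle abundance. R7 went from 524, 529 and 400 in CTL to between 1405 and 2446, and R12 from 844, 947 and 773 to between 2426 and 3193. Their rises were 3.81-fold and 3.26-fold. Both genes had every treated library above every CTL library, as naming required.

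The other named rises were at low levels. R5 (chromosome 19, 48755559 to 48758330) had 4.29, 8.37 and 5.85 in CTL and 9.11 to 95.3 in the treated libraries, the lowest being siTRA b. R6 (chromosome 19, 12899082 to 12919276), which overlaps a unit on the other strand, had 12.9, 13.9 and 8.78 against 19.7 to 92.6. R8 (chromosome 10, 50182778 to 50248610) had 40.8, 45.6 and 62.4 against 115 to 261. R9 (chromosome 9, 89605013 to 89606555) had 37.6, 36.3 and 35.1 against 97.1 to 158. R10 (chromosome 10, 126424997 to 126513939) had 27.9, 26.0 and 24.4 against 40.6 to 150. Adjusted p-values of the mean comparison (edgeR) for these 5 genes ranged from 3.09e-07 in R9 to 3.34e-04 in R10.

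A single member gene had no count at all in CTL. It lies at chromosome 3, 185959943 to 185980872, on the plus strand. It was read in each of the 12 treated libraries, at 15.6 to 89.9, with a median of 44.3. Against a floor of 3 counts over the CTL group it was at least 46.8-fold higher. It fell under the mean of 50 that naming required.

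**Figure D1:**
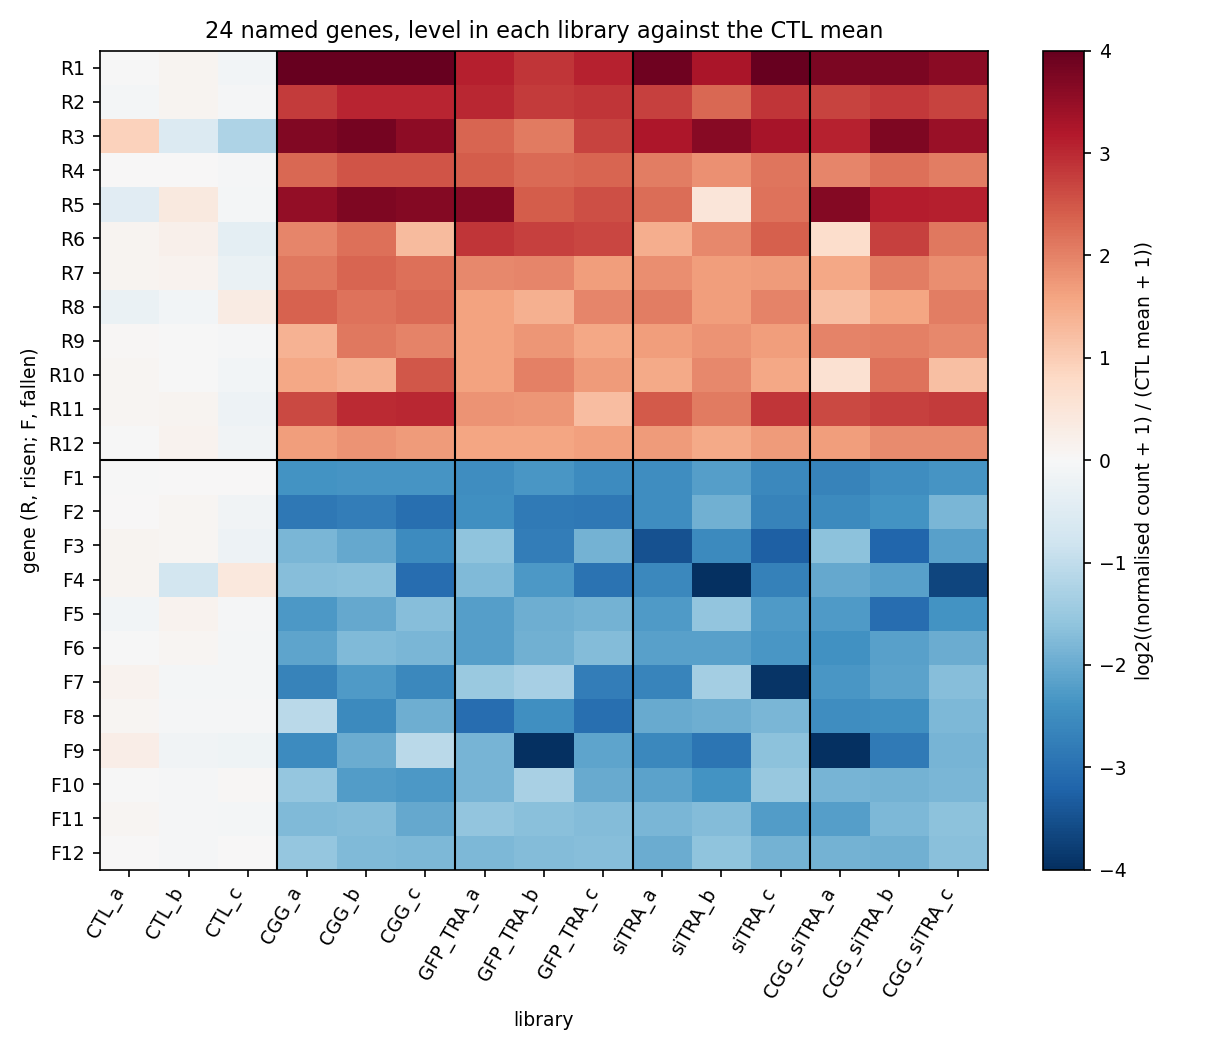
Level of the 24 named genes (rows) in each of the 15 libraries (columns), as the log2 ratio of normalised count plus 1 to the CTL mean plus 1, with red above and blue below CTL. The 12 R genes are red and the 12 F genes blue in each of the 12 treated libraries, as naming required, while R1, R3 and R11 are paler in GFP_TRA.

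Falls included 2 abundant genes with nearly equal values in all treated groups. F1 (ENSG00000171246.5, chromosome 17, 80467148 to 80477843, minus strand) had 45864, 46854 and 47066 normalised counts in CTL. The treated libraries held 7390 to 10089, with a median of 8582. The CTL mean was 5.39 times the treated mean, or -2.38 with SE 0.06 in log2 units (edgeR, adjusted p = 3.89e-15). Group changes of F1 were -2.35 in CGG, -2.46 in GFP_TRA, -2.36 in siTRA and -2.37 in CGG_siTRA.

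F12 (chromosome 18, 58481247 to 58611817, minus strand) was at 65536, 62448 and 65865 in CTL and at 16490 to 22345 in the treated libraries, with a median of 18768. The CTL mean was 3.41 times the treated mean. In log2 units this was -1.72 with SE 0.06 (edgeR, adjusted p = 8.57e-13), and the gene overlaps 1 unit on the opposite strand. F2 (ENSG00000120937.8, chromosome 1, 11857464 to 11858931, minus strand) fell from 1542, 1607 and 1386 to between 185 and 428, with a median of 249. The CTL mean was 5.69 times the treated mean.

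F5 and F11 were of middle abundance. F5 (chromosome 4, 174490177 to 174522731, minus strand) had 1351, 1610 and 1412 in CTL against 175 to 489. F11 (chromosome 11, 130448974 to 130476641, plus strand) had 3124, 2865 and 2796 against 616 to 971. CTL means were 4.34 and 3.53 times the treated means. In both genes the highest treated library lay far below the lowest CTL library.

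The remaining 7 named falls had CTL means under 300. F6 (chromosome 20, 35226654 to 35277000) had 262, 280 and 248 in CTL and 48.3 to 78.5 in the treated libraries. F10 (chromosome 17, 49575858 to 49583827) had 260, 254 and 271 against 49.4 to 105. F3 (chromosome 3, 111592900 to 111595443) had 79.4, 77.2 and 64.4 against 5.65 to 23.4.

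F8 (chromosome 3, 102192344 to 102479841) had 83.7, 77.2 and 76.1 against 8.78 to 36.7. F4 (chromosome 12, 71439770 to 71586306) had 101, 56.7 and 126 against values from 0, in siTRA b, to 28.7. F7 (chromosome 15, 38885470 to 39420951) had 64.4, 55.8 and 55.6 against 2.93 to 22.9. F9 (chromosome 8, 119067241 to 119106582) had 79.4, 60.4 and 58.5 against 2.19 to 30.9. F4, F6 and F10 each overlap 1 unit on the opposite strand and F7 overlaps 2. In all 24 named genes the mean comparison stayed past the threshold, with its sign, under each alternative that gave it, which their choice for large changes favours.

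**Figure D2:**
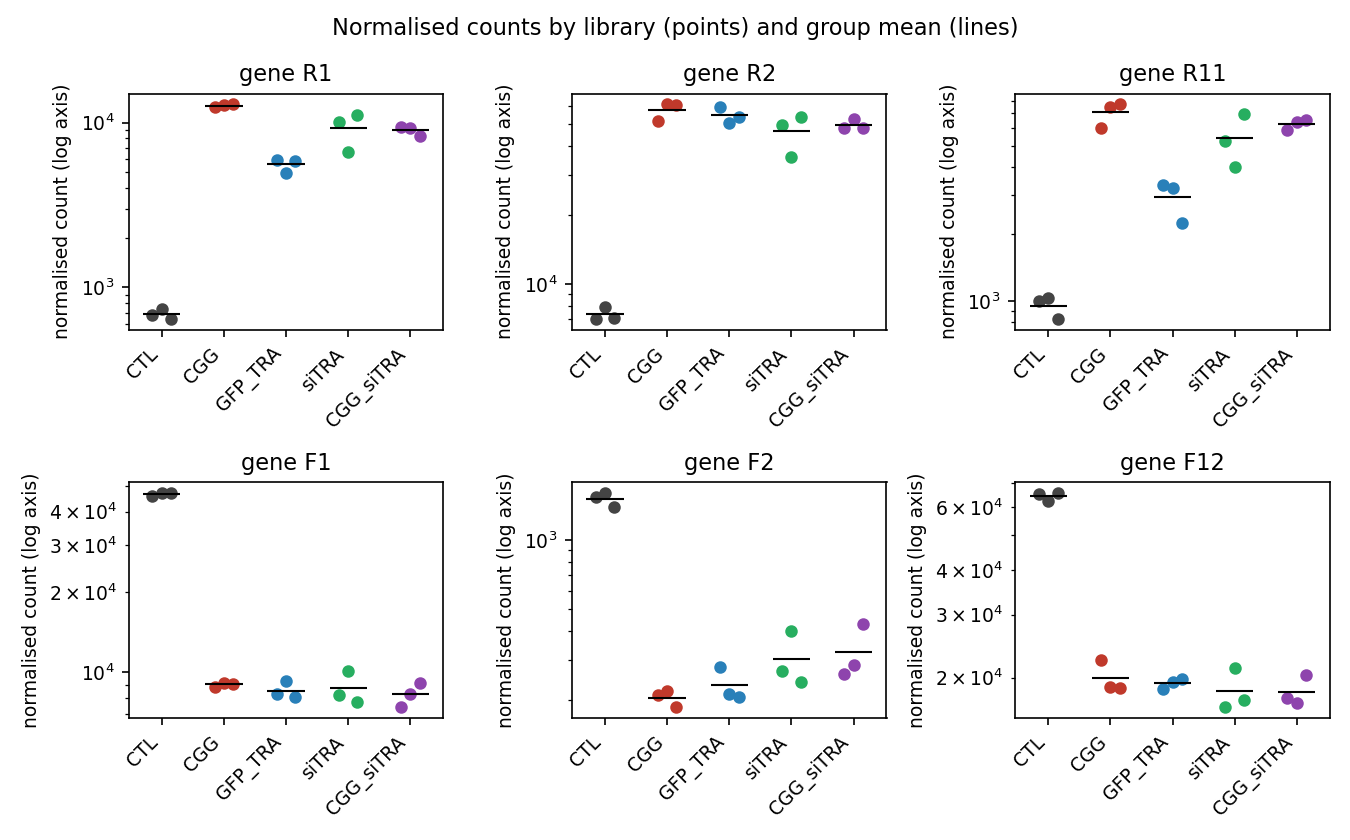
Normalised counts of 6 named genes by group on log axes, with 1 point for each library and a line at the group mean. R1 and R11 are lowest among the treated groups in GFP_TRA, whereas the 12 treated libraries of F1 sit between 7390 and 10089, below the 3 CTL libraries at 45864 or more.

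A test that left CTL out asked whether the treated groups differed among themselves. The F test over CGG, GFP_TRA, siTRA and CGG_siTRA called 4931 of all genes (32.9%). It called 251 of the 708 rises (35.5%) and 333 of the 882 falls (37.8%), shares near that of all genes. With 1 library left out the count over all genes ran from 3760 to 5736, and it was 5183 without siTRA b. Of the 24 named genes the F test called 8, which were R1, R3, R4, R5, R7, R11, R12 and F2. The adjusted p (edgeR) was 0.300 for R2, 0.597 for F1, 0.712 for F12 and 0.612 for F11, which does not show that their levels were equal.

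All 6 pairs of treated groups were compared, each adjusted over all genes. In siTRA vs CGG_siTRA, 2 genes of all those tested were called (0.0134%), and both were among the 708 rises. They were singled out after their values were seen. The gene at chromosome 12, 57516588 to 57520517, minus strand, stood at 1740.4, 1748 and 1599 in CTL, 4489.7, 4008 and 4173 in siTRA and 6905, 7229 and 6071 in CGG_siTRA, a log2 change of -0.73 from CGG_siTRA to siTRA. The gene at chromosome 9, 128149441 to 128153455, plus strand, stood at 96.6, 109.7 and 57.6 in CTL, at 249.5, 237 and 195 in siTRA and at 586, 625 and 575 in CGG_siTRA. Neither gene's siTRA and CGG_siTRA libraries overlapped (adjusted p = 5.20e-04 for each, edgeR). The few calls in this pair do not show that the 2 groups were alike. Each had 3 libraries, siTRA b among them, and the pair is given only with that library. The widest contrast was GFP_TRA vs siTRA, with 31.6% of all genes called, 225 of the rises (31.8%) and 318 of the falls (36.1%). GFP_TRA vs CGG_siTRA gave 25.5% of all genes, 168 rises and 270 falls. CGG vs siTRA gave 15.7% of all genes, 120 rises and 153 falls, CGG vs CGG_siTRA 10.2%, 67 and 118, and CGG vs GFP_TRA 8.43%, 84 and 113.

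Rises called within those pairs were mostly lower in GFP_TRA. Of the 84 called between CGG and GFP_TRA, 76 were higher in CGG, and of the 225 called between GFP_TRA and siTRA, 182 were higher in siTRA. Over all genes called in these pairs, 62.1% were higher in CGG and 46.6% higher in siTRA. Falls were less one-sided: 59 of the 113 called between CGG and GFP_TRA were higher in CGG, and 213 of the 318 called between GFP_TRA and siTRA were higher in GFP_TRA, against 53.4% of all genes called in the latter pair. GFP_TRA had the smallest change of the 4 in 264 of the 708 rises and the largest in 155. In the 882 falls it had the smallest in 323 and the largest in 236. The siTRA group had the largest change in 276 rises and 293 falls.

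Genes that fell in all 4 groups were long, in genomic span and in exonic length. Their median genomic span was 85538 bp, against 25408 bp for genes that rose and 32479 bp for all genes tested. When all tested genes were cut into quartiles of span, the share called lower in all 4 groups was 2.62%, 3.23%, 5.29% and 12.43% from the shortest to the longest quartile. The share called higher was 5.37%, 5.69%, 4.78% and 3.07%. The median log2 change of the mean comparison went from 0.05 in the shortest quartile to -0.08 in the longest, over all tested genes and not the members alone. The share called in the mean comparison also rose with span, from 29.0% to 43.2%. Quartiles of exonic length showed a like gradient, with 1.95%, 4.25%, 6.33% and 11.04% called lower in all 4 groups. By number of bins this share went from 4.01% to 8.34%. Span and exonic length were not tested apart.

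Each group had a lower median in the longest than in the shortest quartile of span. Medians in the shortest and the longest quartile were 0.07 and -0.07 in CGG, 0.07 and -0.11 in GFP_TRA, 0.01 and -0.03 in siTRA, and 0.09 and -0.07 in CGG_siTRA, and the smaller step in siTRA was not tested against the others. Without siTRA b the siTRA medians were 0.02 and -0.06. In that fit 3.26% of the shortest and 15.12% of the longest quartile were called lower in all 4 groups. A change of scaling shifts the medians of all quartiles of a group together and leaves their difference about as it is. The shares called can change with scaling, and those by quartile are given with TMM only. Within levels of expression the step varied. Among genes in the top quartile of level, 2.30% of the shortest and 15.26% of the longest were called lower, and 10.53% and 3.58% higher. In the lowest quartile of level these were 1.49% and 4.27% lower, and 0.948% and 0.964% higher, so rises showed no step there.

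The same showed in single libraries. Genes spanning 100000 bp or more (3012 of those tested) took 18.1%, 17.6% and 18.5% of the counts in CTL. In the treated libraries the share ran from 15.3% to 18.1%, with a median of 16.5%. Only siTRA b, at 18.1%, reached the CTL values, and the 11 others lay below them all. The exact two-sided permutation p was 0.00879 for 3 against 12 libraries, or 0.0791 when adjusted over 9 library measures, and 0.00549 without siTRA b, the smallest that 364 regroupings allow a two-sided test. This measure was added after the data were examined. Among the other 8 measures, the share in 5′-most bins had p = 0.0220 (exact permutation, adjusted 0.0989), with 0.511% to 0.539% in CTL and 0.520% to 0.670% in the treated libraries. The permutations take libraries as separate units, although the treated ones are sets of 3 from 4 groups and CTL is 1 group. Their p-values therefore do not measure the spread between groups. The p without siTRA b also leaves out the only treated library that reached the CTL values. What these library values contribute to the gradient was not tested.

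**Figure D3:**
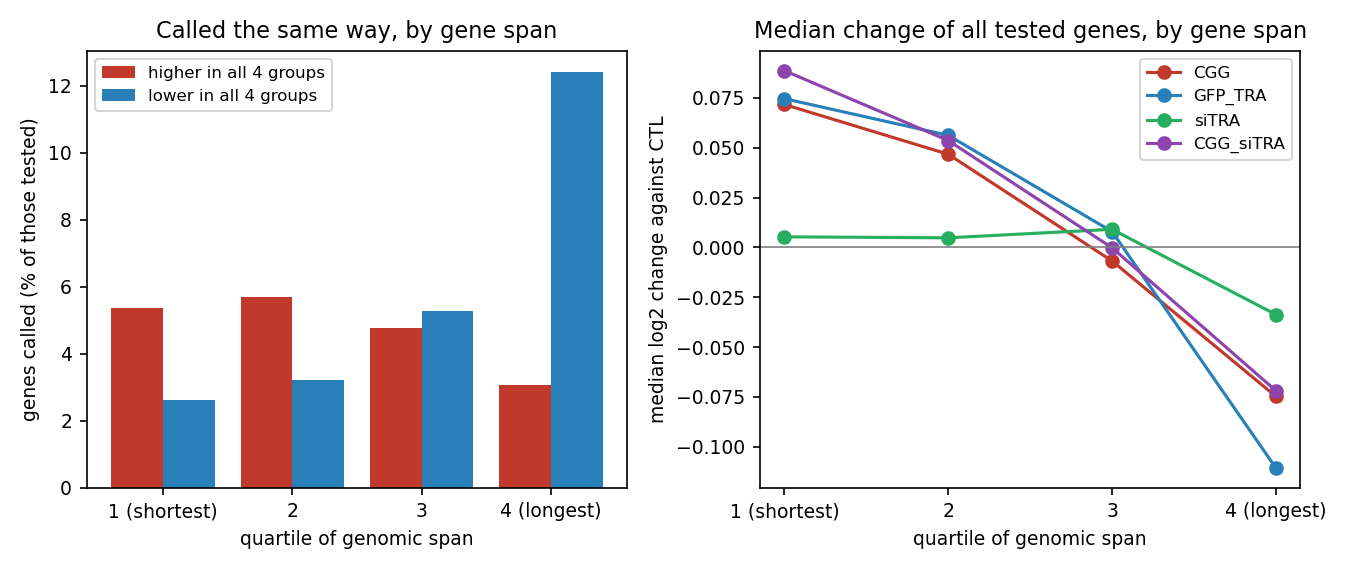
Left, share of tested genes called higher (red) or lower (blue) in all 4 treated groups for each quartile of genomic span. Right, median log2 change against CTL of all tested genes in each quartile for the 4 groups. It is lower in the longest than in the shortest quartile in each group, and the step is smallest in siTRA.

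By chromosome, falls ranged from 1.84% of the genes tested on chromosome 19 to 9.63% on chromosome 13, leaving out Y and the mitochondrial genome with 12 and 2 tested genes. Rises ranged from 2.32% on chromosome 20 to 6.81% on X. Members that were next to each other among tested genes formed 40 runs of rises and 76 runs of falls, mostly pairs. The number of runs that scattered members would form was not computed, and overlapping units can share reads. The counts therefore do not show that members cluster. The longest run of rises held 5 genes and that of falls 4.

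The run of rises lies at chromosome 10, 88990582 to 89414557. Its gene from 89327894 to 89340971 stood at 317, 340 and 283 in CTL and at 665 to 1203 in the treated libraries, a log2 change of 1.58. The gene from 88990582 to 89015785 went from 159, 165 and 115 to between 214 and 380, a log2 change of 0.97. The gene from 89213575 to 89414557, on the minus strand, rose by 0.65 and spans the 3 others, which rose by 0.77, 1.58 and 1.18, so reads of overlapping units may be counted together.

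The run of falls lies at chromosome 11, 130226677 to 130865561, and holds F11. Its gene from 130404925 to 130428993 had 381, 425 and 326 in CTL and 57.3 to 181 in the treated libraries. The log2 change was -1.67, beside -1.78 in F11, -0.55 in the gene from 130226677 to 130314686 and -1.82 in the sparsely read gene from 130844191 to 130865561. A run of 3 falls on chromosome 20 holds an abundant gene, 57648392 to 57711536, with 16326, 17437 and 17120 in CTL and 7386 to 10849 treated. It also holds 1 with 24.7, 16.7 and 17.6 in CTL and 0 to 4.88 treated, from 58069054 to 58072060. The remaining member, from 57710183 to 57712780, overlaps the abundant gene on the opposite strand. Their log2 changes were -0.82 and -0.79, so reads of these overlapping units may be counted together.

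Few exon bins changed in relative use the same way in all 4 groups, and most of those were used more. Use means a bin's change after that of its whole gene is taken out. The mean of the treated groups differed from CTL in 1610 of 265486 bins (0.606%), 1082 higher (0.408%) and 528 lower (0.199%), by edgeR's diffSpliceDGE. In simulated data 52 of 176 calls of that mean comparison (29.5%) lay in genes with no changed bin, so its count may hold many false calls. For bins called the same way in all 4 groups it was 1 of 81. The simulation drew each bin independently, without reads shared between bins or shifts common to a library. Neither share can therefore be carried over to the real bins as a rate. In the real data CGG gave 665 calls (0.25%), GFP_TRA 978 (0.368%), siTRA 1348 (0.508%) and CGG_siTRA 1407 (0.53%). In all 4 groups, 113 bins of 68 genes were used more (0.0426%) and 34 bins of 16 genes less (0.0128%). The share of the gene lay outside the CTL range in every treated library for 70 of the 113 and 33 of the 34, against 0.624% and 0.596% of all bins. The bins were chosen by their change against these CTL libraries, so that excess follows from the choice.

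The bins used more were minor parts of their genes. Their median share of the gene's counts was 0.31% in CTL and 0.60% in the treated groups, against a CTL median of 2.94% over all bins. In CTL, 89 of the 113 held under 1% of their gene. Median log2 changes of use were 0.98 in CGG, 0.99 in GFP_TRA, 0.99 in siTRA and 1.07 in CGG_siTRA. Merged groups of overlapping genes held 35 of the 113 and 26 of the 34 bins used less, against 16.7% of all bins. In such groups a change of use can be a change of 1 gene relative to the other.

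These counts were sensitive to single libraries. Without siTRA b, 254 bins were called the same way in all 4 groups. Without CGG b there were 82, without CGG c 76, without GFP_TRA b 77, and without CTL a, b or c 68, 63 or 66. The authors' deposited tables gave 516 such bins, 263 used more and 253 less. Of the 113 and 34 bins, 51 and 30 were also called that way in all 4 of the authors' deposited tables. Of the 16 named bins, 11 were called in all 4 of those tables, and all 16 had the same sign there. The 5 others were U3, U5, U6, U8 and D6.

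U1 and U2 led the named raised bins when ranked by their least change over the groups. U1 (chromosome 4, 56399401 to 56400783) lies inside a single gene on the minus strand that spans 56393362 to 56435615. It held 91.3, 81.8 and 72.2 normalised counts in CTL and 133 to 307 in the treated libraries. Its share of the gene went from 0.394% to 0.503% in CTL libraries to 1.17% to 1.999% in treated ones, a log2 change of use of 1.86 (adjusted p = 9.16e-27, edgeR). U2 (chromosome 2, 232567528 to 232568020, plus strand) had 61.2, 80.0 and 80.0 in CTL and 240 to 404 treated. Its share rose from between 0.485% and 0.633% to between 1.57% and 2.51%, while the gene as a whole changed by 0.30.

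Several raised bins near 5′ ends were uneven among the treated libraries. U6 (chromosome 6, 36986126 to 36986298, minus strand) is the first bin of its gene and had 30.1, 26.96 and 42.0 in CTL. GFP_TRA c held 32.5 and siTRA b 20.8, within or below the CTL values, while GFP_TRA b reached 183. U3 (chromosome 20, 43667019 to 43667156, plus strand), also a first bin, had 22.5, 29.7 and 54.6 in CTL and 33.7 to 250.5 treated, with GFP_TRA c and siTRA b lowest. In the authors' deposited tables U6 had an adjusted p of 0.269 in CGG, 0.675 in GFP_TRA, 0.583 in siTRA and 0.00117 in CGG_siTRA. U3 was at 0.0497, 0.504, 0.121 and 4.5e-06 there in the same order. Summed over the 9 raised 5′-most bins, libraries held 6.67 to 7.31 CPM (counts scaled to the library total) in CTL, 6.47 in GFP_TRA c, 7.20 in siTRA b and 8.45 to 17.8 in the other 10. All 113 raised bins together gave 166 to 170.2 CPM in CTL and 225 to 289 in the treated libraries, as their choice favoured. GFP_TRA c also had the lowest share of counts in 5′-most bins among the treated libraries, 0.520%, and its part in these calls was not tested.

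The merged unit at chromosome 16, 83899126 to 83966332, on the plus strand, held 6 of the raised and 8 of the lowered bins. Its first 8 tested bins, up to 83927026, had counts of 0.47 to 1.12 times CTL in the 4 groups. The 6 bins from 83957651 on had 3.97 to 9.45 times CTL. The last of them, 83965062 to 83966331, averaged 169 in CTL, 915 in CGG, 860 in GFP_TRA, 709 in siTRA and 793 in CGG_siTRA. The unit merges 3 annotated genes, so counts of the downstream part rose in all 4 groups, and the lower use of the 8 upstream bins came with counts from about CTL level to below it. Bin D1 of the upstream part (83914956 to 83916171) had 263, 242 and 262 in CTL and 118 to 257 treated.

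**Figure D4:**
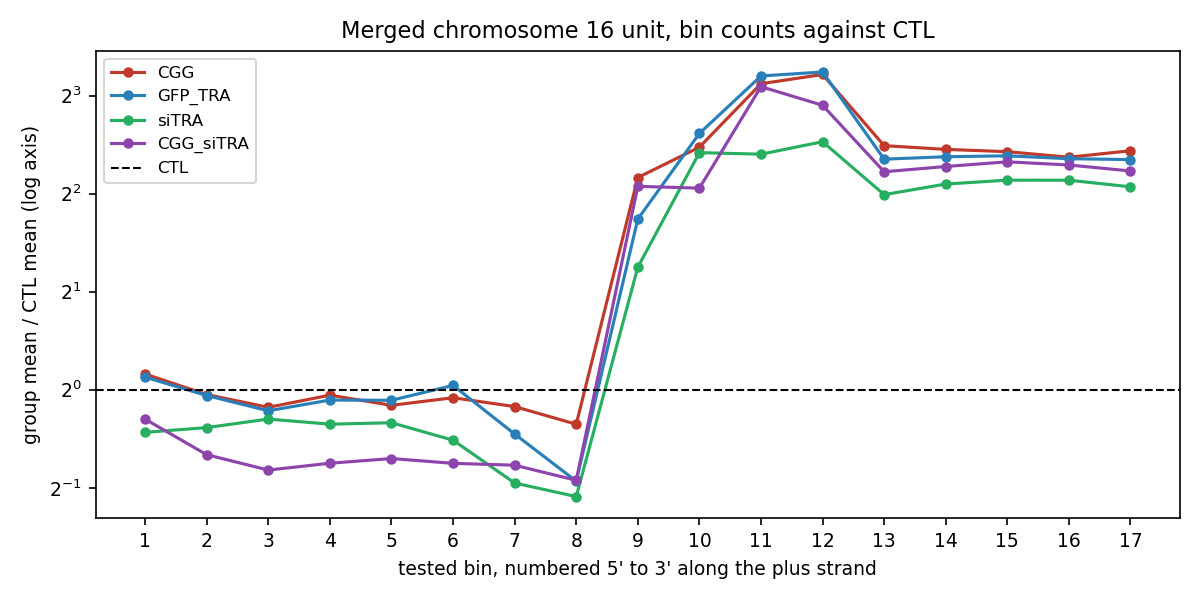
Group mean over CTL mean, on a log axis, for the 17 tested bins of the merged chromosome 16 unit from its 5′ to its 3′ end. The first 8 bins lie between 0.47 and 1.12 times CTL and the last 6 between 3.97 and 9.45 times CTL in all 4 groups.

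D4 and D2 were used less, and their own counts were below CTL in each treated library. D4 (chromosome 1, 85577984 to 85578150, minus strand) had 435, 473 and 444 in CTL and 121 to 230 in the treated libraries. Its share of the merged unit was 5.29% in CTL and 2.07%, 2.57%, 1.81% and 1.65% in CGG, GFP_TRA, siTRA and CGG_siTRA. The log2 change of use was -1.41 (adjusted p = 1.90e-26, edgeR). The unit's total changed by -0.06 in the mean comparison, but the groups went different ways. It averaged 8514 in CTL, 6594 in CGG, 6765 in GFP_TRA, 10272 in siTRA and 8424 in CGG_siTRA.

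D2 (chromosome 7, 148229646 to 148229779, plus strand) was 1 of 6 lowered bins in a merged unit that spans 146116648 to 148420998. It stood at 98.8, 94.8 and 108 in CTL and at 22.1 to 46.3 in the treated libraries. The authors' deposited event tables, held here for CGG and GFP_TRA against CTL, list an alternative first exon across D2 with a change in percent spliced in of -0.219 in CGG (adjusted p = 0.00113 over 6311 events) and -0.226 in GFP_TRA (adjusted p = 0.819). The sign convention of that change is not stated. They hold 4 further events across named bins, 2 over U2 and 2 over D3, with adjusted p from 0.818 to 1. D7 (chromosome 14, 75647151 to 75648167, plus strand) was 1 of 5 in its merged unit, with 225, 221 and 241 against 41.0 to 148. Its use fell by 0.81 in CGG and 0.94 in GFP_TRA and by 1.47 in each knockdown group on the log2 scale.

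D3 and D8 are lowered bins of single genes. D3 (chromosome 12, 104288895 to 104288930, plus strand) had 74.1, 78.1 and 98.6 in CTL and 31.0 to 80.1 treated, so its own counts overlapped, while the gene's log2 change was 0.92. D8 (chromosome 3, 48693785 to 48693952, minus strand) had 112, 126 and 144 against 59.6 to 88.5, and its share went from 1.27% in CTL to between 0.656% and 0.769% in the groups. The 34 lowered bins together held 58.2 to 59.0 CPM in CTL and 33.7 to 40.0 in the treated libraries, as their choice favoured.

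Raised bins clustered in a few more genes. A gene on the minus strand of chromosome 1, 244840638 to 244864560, held 7 raised bins with log2 changes of use from 1.13 to 1.61. The gene itself had no called change in the mean comparison (-0.04, adjusted p = 0.65, edgeR). It averaged 192985 in CTL, 185158 in CGG, 219352 in GFP_TRA, 177623 in siTRA and 151648 in CGG_siTRA. A gene on chromosome 3, 149517235 to 149736714, which fell by 0.65, held 7 raised bins within 149656891 to 149658025, with changes of use from 0.83 to 0.98. Of the 113 raised bins, 16 lay in genes called lower in all 4 groups, 7 of them in this chromosome 3 gene. Another 10 lay in genes called higher, and the merged chromosome 16 unit, which rose by 1.25, held 6 raised bins. The share of all tested bins in such genes was not computed, so these counts show no preference. Use is taken relative to the gene, so bin and gene changes are also tied by construction.

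**Figure D5:**
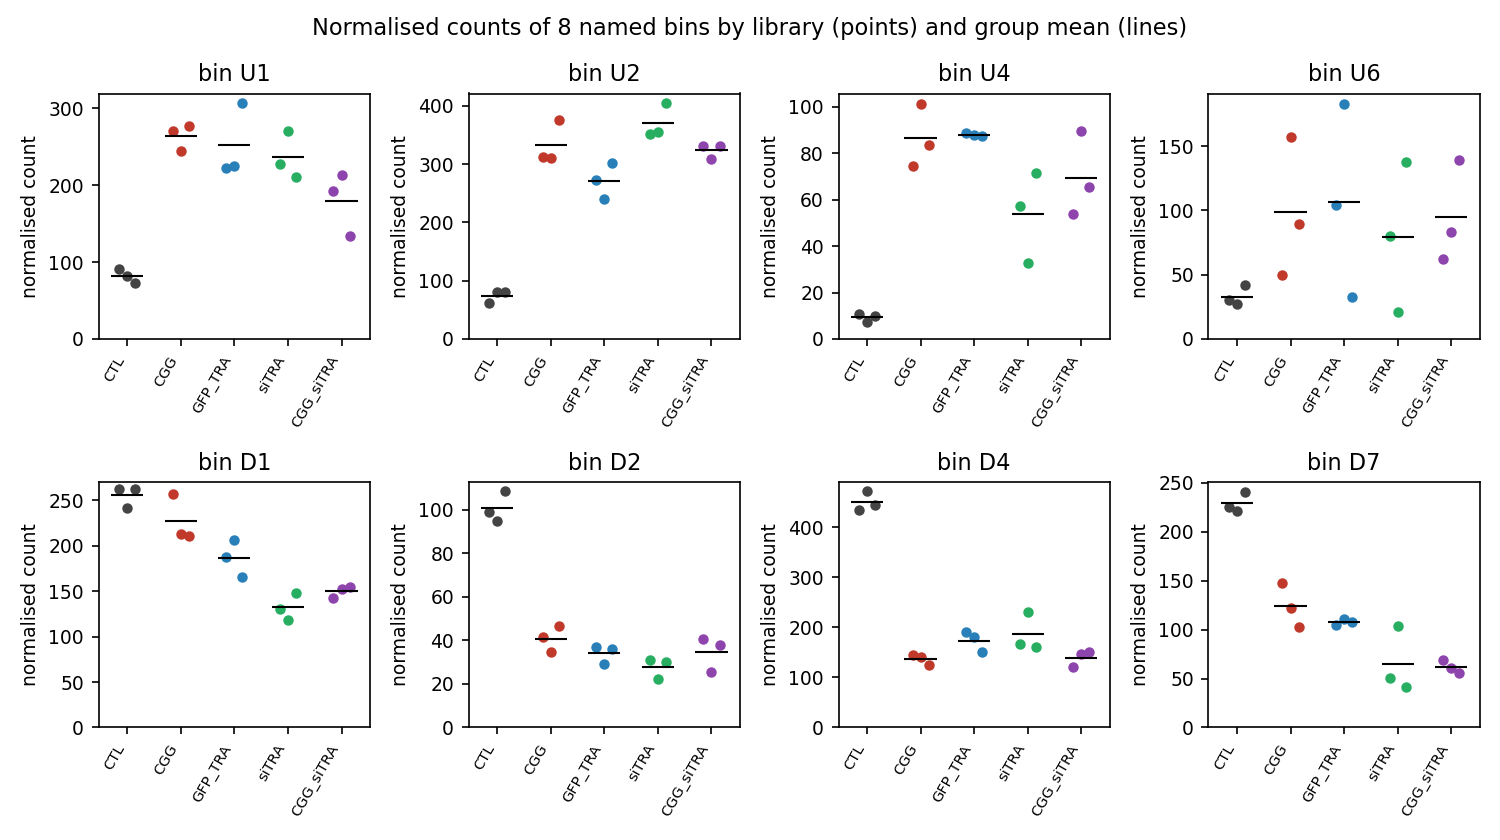
Normalised counts of 8 named bins by group, with 1 point for each library and a line at the group mean. U1, U2 and U4 are above CTL in each treated library, U6 overlaps CTL in GFP_TRA c and siTRA b, and D2, D4 and D7 are below CTL in each treated library.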

How the data were processed

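RNA of 15 COS-7 libraries (total RNA, ribosomal RNA depleted, per the labels' protocols) was, per the submitters' processing notes, trimmed (cutadapt 1.14) and mapped by STAR 2.5.2 to human GRCh38.p10, not a monkey genome. The authors deposited counts per exon bin, and a normalised signal per bin that divides them by 1 factor per library. They also deposited p-values and log2 changes of bin use in DEXSeq tables, and EventPointer tables with p-values, z scores and changes in percent spliced in (a score from -1 to 1), per the file headers. With the factors divided out, 100.0% of values came within 0.1 of whole reads and equalled the deposited counts. Reads spanning several bins count in each. Counts were summed to 19927 genes or merged groups, and those reaching 10 normalised counts in 3 libraries were tested in edgeR 4.0.16 (R 4.3.3; TMM, 5 group means, quasi-likelihood test, Benjamini-Hochberg over all genes), each treated group weighing 0.25. Bin use was tested with diffSpliceDGE, with the dispersion (spread between libraries) set by a trend over bins and not bin by bin. What this does to uneven bins such as U3 and U6 was not tested. Fits of bins with 1 library left out kept the dispersions of all 15 libraries. Levels printed are on the authors' scale. Both tests were tested on simulated data, each gene or bin drawn independently, with changes of 1.5-fold and 2-fold in all 4 groups. The rule of calls in all 4 recovered 59% and 70.0% of changed genes, and 24.2% and 60.0% of changed bins. The 3 CGG_TRA samples were not analysed here. Named genes were the 12 rises and 12 falls (bins, 8 and 8, 1 per gene) with the largest smallest change over the 4 groups, among single genes with a mean of 50 or more and no overlap of CTL and treated libraries; bins had no overlap or single-gene requirement. Members and lists were chosen with earlier results of these data known. Alternatives were other scalings and filters, DESeq2 1.42.0, limma 3.58.1, other summaries and left-out libraries. Of 23055 identifiers, 0 matched the name table of the monkey assembly.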

Additional observations from a re-analysis of the deposited data

Results flagged for a closer look

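Of the named genes, 8 differed between treated groups by the F test that leaves CTL out. The widest pair, on the log2 scale, was CGG minus GFP_TRA in R1 (1.22), R3 (1.36) and R11 (1.31), where GFP_TRA had the smallest rise. It was CGG minus siTRA in R4 (0.40), R5 (1.78) and R7 (0.43). GFP_TRA minus CGG_siTRA was -0.36 in R12, and CGG minus CGG_siTRA was -0.77 in F2, which fell most in CGG. In R5 the siTRA value rests on 33.0, 9.11 and 31.2 counts per library.

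Genes outside the 4 bin tables against CTL, mostly annotated with a single bin, were fitted together with the others when all bins of the normalised table were used. Of the 2557 of them that were tested, 59 (2.31%) were called the same way in all 4 groups, 50 higher and 9 lower, against 1564 of all 17526 genes (8.92%) in that fit.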

How the results depend on the processing

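In the comparison of the treated mean with CTL, the 24 named genes and 16 named bins kept their sign and their side of the threshold in 808 of 808 alternative values. For bins these were a stricter filter and left-out libraries, the latter fitted with the dispersions of all 15 libraries. Named genes and bins were chosen for large changes in these same data, which favours such a result and does not speak for the other members. In the authors' deposited tables by group, 5 of the 16 bins missed the threshold in at least 1 group. The adjusted p was above the threshold for U3 in GFP_TRA (0.504) and siTRA (0.121), U5 in GFP_TRA (0.299), U6 in CGG (0.269), GFP_TRA (0.675) and siTRA (0.583), U8 in GFP_TRA (0.422) and D6 in CGG (0.0629). The 1590 member genes came to 1125 to 2104 when 1 library was left out, the highest without siTRA b. In each of these 15 fits, 353 of the 708 rises and 553 of the 882 falls were called. Counts moved by more than 1.5 times in the following cases, and the cause was not tested. Fitted alone with CTL, CGG gave 6275 genes. The 12 treated libraries as 1 group gave 3178 in place of 5457, a fit with more spread within the group by its construction. With the highest bin for each gene, 1000 genes were called the same way in all 4 groups. At least 1.5-fold in each group left 354 and at least 2-fold 125, fewer by construction. The authors' deposited tables called 5914 bins in CGG, 4209 in GFP_TRA, 5237 in siTRA, 10593 in CGG_siTRA and 516 the same way in all 4.

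With 1 library left out, which also leaves fewer samples, called bins numbered 511 to 2417 for the mean of the treated groups, 268 to 1015 for CGG, 259 to 1506 for GFP_TRA, 602 to 1825 for siTRA, 557 to 1960 for CGG_siTRA and 63 to 254 for all 4 groups. All these fits kept the dispersions of the 15 libraries and were not full refits. Leaving out any CTL library lowered each of these 6 counts by more than 1.5 times. Leaving out siTRA b raised those of the mean (2417), CGG (1015) and all 4 groups (254). CGG b and c (285 and 270 calls in CGG), GFP_TRA a, b and c (492, 259 and 1506 in GFP_TRA) and CGG_siTRA b and c (690 and 737 in CGG_siTRA) moved the count of their own group as far, and CGG b, CGG c and GFP_TRA b for all 4 groups (82, 76 and 77). No paired analysis was possible because the columns carry library numbers with no link to the replicates named in the titles. For 2 CGG_siTRA samples the titles name different rounds, tied to no column, so a batch could not be fitted. A likelihood ratio test in DESeq2 for the difference among groups was not run. Intervals of low counts are wide, and the calls of named genes and bins under 50 normalised counts in CTL rest on few reads.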
